A study of Mus musculus with 18 samples.

Results

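Flour of conventionally grown potatoes that had been stored (PCS) was compared with flour of conventionally grown potatoes that carry no storage label (PC, called fresh here) in enterocytes of the mouse jejunum. The arrays were chosen by their labels alone: 3 PCS mice and 3 PC mice, 6 of the 18 mice in the series. All mice were male BALB/cOlaHsd, 8 weeks old at the start, fed standard chow, and given a daily gavage for 20 days. PC and PCS mice received 30 mg per day of flour made from whole tubers with the skin. How long and how the tubers were stored is not stated in the labels. PO and POS mice received flour of organically grown potatoes without and with storage, Ctr mice received water, and ADI mice received a pesticide mixture at its acceptable daily intake. Each group had 12 mice, of which 3 were measured, and cells scraped from the jejunum of each mouse were hybridised to a 1-colour (Cy3) Agilent array of its own. The label of POS mouse 3 places its sampling on day 27, 7 days after the last gavage.

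Enterocytes are the absorptive cells of the small intestine. They take up digested fat, sugar and amino acids, build lipoproteins around apolipoproteins such as ApoA-I, and meet the compounds of food first. Potato tubers change in sugars and glycoalkaloids during storage, and a comparison of stored with fresh flour asks whether the epithelium differs with the state of the tuber. A scrape also carries immune cells that lie between the enterocytes, so a T cell transcript such as Cd2 can come from cells other than enterocytes.

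In the main fit no feature passed the test of PCS against PC mice. In limma 0 of 5021 features passed an adjusted p of 0.05 on intensities as deposited (0% called), and 0 passed after each array had been centred on its own median (0%). As deposited, 38 features had an unadjusted p under 0.05, all higher in PCS mice, and after centring 24 did, 9 higher and 15 lower. The limma fit pools the spread of all 6 groups, so arrays outside the comparison enter it. Without the PO 2 array, 261 features as deposited and 75 centred had an unadjusted p under 0.05 in limma, and 0 passed. A fit of the PC and PCS arrays alone had 276 and 33, with 1 feature passing as deposited and 0 centred. The 3 arrays labelled PCS were unlike one another. A set of genes picked on these same values includes Card14, Slc10a1, Orc5, U2af2 and Acvr1b. PCS mice 1 and 2 had higher levels of these genes than every PC mouse, while PCS mouse 3 had lower centred levels of them than any PC mouse.

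Arrays differed in overall brightness. The median intensity over the 5021 features was 45, 103 and 68 in PC mice 1, 2 and 3, and 89, 159 and 507 in PCS mice 1, 2 and 3. The PCS 3 array was the brightest of the 6, and PCS array 1 was dimmer than PC array 2. The mean array median was 7.59 ± 1.28 (log2, SD, n = 3) in PCS and 6.09 ± 0.60 (log2, SD, n = 3) in PC, a difference of 1.50 with p = 0.2 in a two-sided exact permutation test, in which 3 arrays against 3 cannot go below 0.1. Without PCS array 3 the difference was 0.81. This brightness enters every value as deposited: the median feature was 1.38 higher in PCS (log2), and 4997 of 5021 features were above 0 (99.5%), as were all 43 named genes. After centring, the median feature was at -0.12, 1752 features were above 0 (34.9%), and the named genes were split into 21 above and 22 below. The direction therefore turned with the scaling for 22 of the 43 named genes and for most features, and differences are given on both scales.

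**Figure D1:**
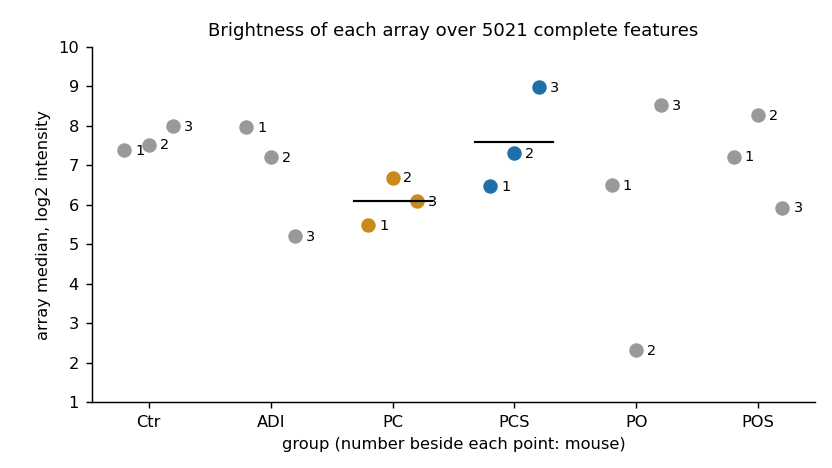
Median log2 intensity of each of the 18 arrays over the features measured on all of them, by group, with the mouse number beside each point and a black line at the mean of the PC and PCS groups. The PC arrays lie between 5.49 and 6.69 and the PCS arrays between 6.48 and 8.99, so the groups overlap, and PCS array 3 is the brightest of all 18.

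PCS array 3 stood apart from its group in the pattern of features as well. Its Spearman correlation across the 5021 features was 0.755 with PCS array 1 and 0.801 with PCS array 2, while PCS arrays 1 and 2 correlated at 0.933 with each other and the PC arrays at 0.900 to 0.949. PCS array 3 correlated at 0.976 with ADI array 1 and at 0.967 with Ctr array 1, higher than with any PC or PCS array. The features share their libraries and their probe brightness, so these coefficients are descriptions. The median SD of a feature, as deposited, was 0.69 (log2) over the PC arrays, 1.48 over the PCS arrays and 0.64 over PCS arrays 1 and 2. After centring it was 0.44, 0.51 and 0.31. In other groups, arrays of 1 group correlated at 0.954 to 0.974 (Ctr), 0.778 to 0.929 (ADI), 0.223 to 0.947 (PO) and 0.897 to 0.935 (POS), so low values within a group also occurred in ADI and PO. The authors' deposited table shows no departure of PCS mouse 3 for most genes that it lists for PCS mice, as described below. It lists a gene only with values other than 0 in all 3 PCS mice, so a departure in a gene it does not list cannot be seen there. Acvr1b is listed at 2.53, 3.38 and 2.68 in PCS mice 1, 2 and 3, where the intensities were 1016, 1830 and 124. For Csf2 the authors' values and the intensities differ in their order over the PCS mice. Whether the intensity column labelled PCS 3 holds the RNA of that mouse is therefore uncertain. PCS mouse 3 stands below for the column so labelled, every value of it carries this doubt, and why it departs was not tested. Differences of named genes are given with and without it.

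**Figure D2:**
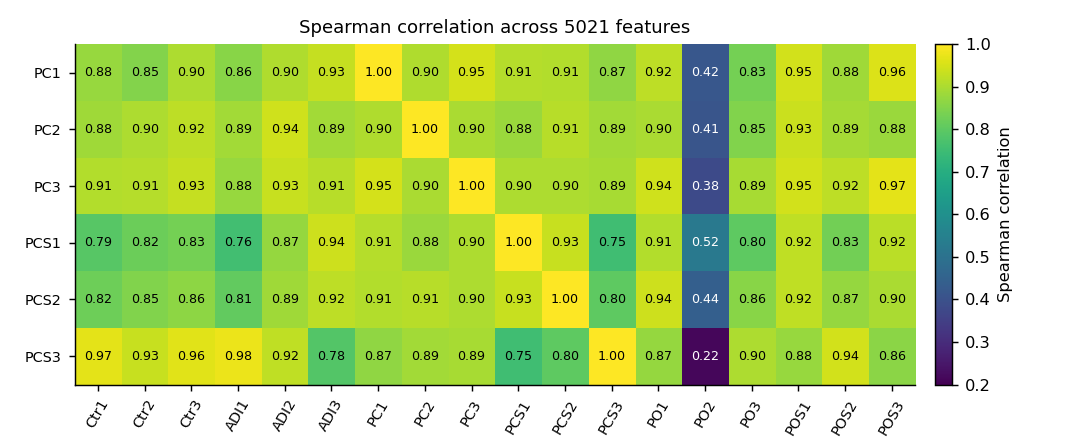
Spearman correlation, across the features measured on all arrays, of each PC and PCS array (rows) with all 18 arrays (columns), by colour and printed value. Apart from its own cell, the row of PCS 3 is lightest at ADI 1 (0.976) and at Ctr 1 (0.967), and lower at PCS 1 (0.755) and PCS 2 (0.801). The PO 2 column is dark throughout.

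Leaving out PCS array 3 did not bring any feature past the threshold. Limma called 0 features as deposited (0%), with 117 at an unadjusted p under 0.05, and 0 after centring (0%), with 263 at an unadjusted p under 0.05, 101 higher and 162 lower. The smallest adjusted p after centring was 0.228 without this array and 1.00 with it. Features whose PCS and PC arrays did not overlap were counted with and without this array, a count that can only grow when an array is left out. As deposited, 975 features had every PCS array above every PC array (19.4%) and 0 had every one below (0%). Among the named genes 7 of 43 were above, namely Card14, Cd2, Chd3, Slc10a1, Sv2b, Thap1 and Tmem145, a share close to that of all features. Without PCS array 3 the counts were 1221 above (24.3%), with 16 of the 43 named genes, and 24 below (0.478%), with Chd4 and Ufc1. After centring, 54 features were above (1.08%) and 94 below (1.87%), and 0 named genes were among either. Centred and without PCS array 3, 418 were above (8.33%), with 13 named genes, and 890 were below (17.7%), with Ank2, Pde4b, Ufc1 and Ufm1. Leaving out any other PC or PCS array raised the centred counts too, to between 108 and 264 above and between 178 and 661 below, and as deposited the highest count above came without PCS array 1, at 3567. Of the genes named here, Tmem145, Ank2 and Pde4b lie outside the lists of genes given in full and were named after their values were seen.

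A wider margin separated the sets more sharply, by a rule chosen after the data had been seen. PCS arrays 1 and 2 were both more than 1 log2 unit above every PC array, on centred values, in 112 features (2.23%) and below every PC array by that margin in 30 (0.597%). Of the 43 named genes 10 were above and 0 below. PCS array 3 was more than 1 log2 unit below all 5 other PC and PCS arrays in 444 features (8.84%), 13 named genes among them, and above all 5 in 16 (0.319%), Chd4 and Ufc1 among them. The 10 genes high on PCS arrays 1 and 2 were Acvr1b, Cadm2, Card14, Cd2, Orc5, Rasgef1a, Slc10a1, Tmem145, U2af2 and Uhrf1bp1, and each of them was also among the 13 low on PCS array 3, beside Aebp2, Csf2 and Noc4l. For the 10 genes, PCS arrays 1 and 2 stood 3.97 to 5.95 times above the PC mean on the centred scale and 6.95 to 10.4 times as deposited. PCS array 3 stood below the PC mean by a centred log2 difference of -3.30 to -1.77. With all 3 PCS arrays the centred differences came to 0.23 to 0.89. All 10 are in the authors' own PCS list, which was chosen on these samples and is no independent evidence of a direction.

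**Figure D3:**
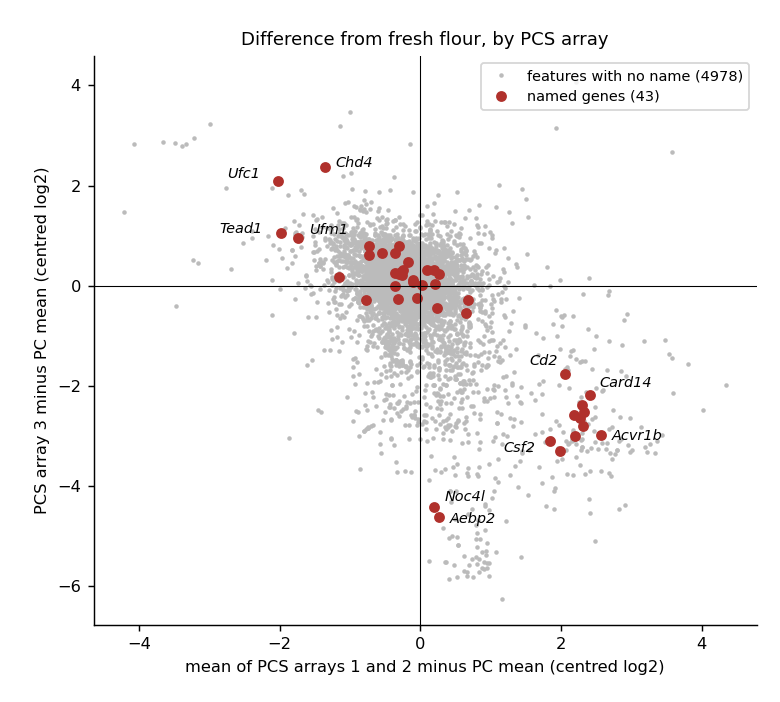
Each point is 1 feature, with the mean of PCS arrays 1 and 2 minus the PC mean on the horizontal axis and PCS array 3 minus the PC mean on the vertical axis, both as centred log2 differences. Named genes are red and features without a name grey, and the 10 genes high on PCS arrays 1 and 2 lie at lower right, between 1.99 and 2.57 across and between -3.30 and -1.77 down.

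The same 10 genes varied between mice of the other groups too. The median of their centred levels was 3.38, 2.67 and 1.90 in PC mice 1, 2 and 3, and 4.84, 4.78 and -0.03 in PCS mice 1, 2 and 3. It was 0.51, 0.64 and 1.59 in Ctr mice, 0.30, 1.50 and 4.40 in ADI mice, 3.62, 3.57 and 1.94 in PO mice and 2.19, 1.97 and 3.22 in POS mice. The nearest to PCS mice 1 and 2 was ADI mouse 3, which received no potato flour, and the nearest to PCS mouse 3 was ADI mouse 1. The median intensity was 37 on ADI array 3, 89 and 159 on PCS arrays 1 and 2, and 507 on PCS array 3. It was 45 on PC array 1, 250 on ADI array 1, 5 on PO array 2 and 370 on PO array 3. The part of brightness in these levels was not tested.

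Of the 4 mucosal immune genes with a value on every array, Card14, Cd2 and Csf2 were higher in PCS mice 1 and 2 than in every PC mouse as deposited and centred, and H2-K2 was not. Over all features the share that stood so was 24.3% as deposited and 8.33% centred, and Card14, Cd2 and Csf2 belong to the authors' PCS list, which was chosen on these samples. Card14 (feature 24326), a scaffold protein that links receptors to NF-kB, had intensities of 347, 464 and 235 in PC mice 1, 2 and 3, and of 2537, 3876 and 554 in PCS mice 1, 2 and 3. Every PCS value as deposited lay above every PC value, with PCS mouse 3 close to PC mouse 2. The log2 difference was 2.39 as deposited (SE 1.23, adjusted p = 0.567) and 0.89 centred (95% interval -1.51 to 3.29, adjusted p = 1.00), and 2.42 centred without PCS array 3 (unadjusted p = 0.021, adjusted p = 0.923). Cd2 (feature 8561), an adhesion receptor of T cells and natural killer cells, had intensities of 539, 664 and 271 in PC mice and 2263, 4937 and 1002 in PCS mice. Its groups did not overlap as deposited, and after centring PCS mouse 3 fell below the PC mice: the deposited difference was 2.28, and the centred difference 0.78 (95% interval -1.21 to 2.77), or 2.06 without PCS array 3 (adjusted p = 0.885). In such scrapes a change in the share of T cells and a change in transcript per cell cannot be told apart. Of the cell type markers that could be followed, Cd2 was the 1 T cell marker and Apoa1 the 1 enterocyte marker with a value on every array, and the T cell receptor segment Trbv13-1 had no value for PCS mouse 3. The part of T cell number in the Cd2 values was not tested.

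Csf2 (feature 38320), which encodes the cytokine GM-CSF, had intensities of 595, 873 and 283 in PC mice and 2062, 5350 and 457 in PCS mice. PCS mice 1 and 2 were above all PC mice. PCS mouse 3 lay among the PC mice as deposited and below all of them after centring. The log2 difference was 1.70 as deposited, and the centred difference was 0.20 (95% interval -2.46 to 2.85) with all arrays and 1.85 without PCS array 3. The class I histocompatibility gene H2-K2 had intensities of 512, 1331 and 2537 in PC mice and 1706, 2671 and 9001 in PCS mice, with a difference of 1.52 as deposited and 0.02 centred (SE 0.69), or 0.025 centred without PCS array 3. Its groups overlapped. None of the 4 measured immune genes passed the test on either scale; the list's median difference was 1.99 as deposited, where all features had 1.38, and 0.49 centred, where all features had -0.12.

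Genes of lipid and bile acid handling did not move as one. Apoa1 (feature 20313), which enterocytes secrete as the chief protein of high-density lipoprotein, had intensities of 1777, 6001 and 4447 in PC mice and 4683, 12383 and 31826 in PCS mice. The groups overlapped, since PC mouse 2 was above PCS mouse 1. Its log2 difference was 1.76 as deposited and 0.26 centred (95% interval -1.52 to 2.04), and 0.27 centred without PCS array 3, so PCS mouse 3 did not depart for this gene. Slc10a1 (feature 5199), the sodium-dependent bile acid carrier best known from hepatocytes, had intensities of 543, 648 and 346 in PC mice and 3409, 5343 and 704 in PCS mice. All PCS values as deposited were above all PC values, narrowly so in PCS mouse 3. Its difference was 2.24 as deposited (SE 1.30) and 0.74 centred, and 2.30 centred without PCS array 3 (adjusted p = 0.940). Acat3, a cytosolic thiolase that condenses acetyl-CoA, had intensities of 1027, 3227 and 3619 against 2831, 4923 and 18393, and its difference was 1.47 as deposited and -0.03 centred (SE 0.86), or -0.10 centred without PCS array 3. Of the 3 measured members 0 passed on either scale. Apom, an apolipoprotein of high-density lipoprotein, had no value for PCS mice 2 and 3.

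Replication, splicing and activin signalling each had 1 gene in the set high on PCS arrays 1 and 2. Orc5 (feature 6130), a subunit of the origin recognition complex, had intensities of 622, 834 and 338 in PC mice and 3675, 6035 and 669 in PCS mice. U2af2 (feature 28652), which binds the polypyrimidine tract before an exon, had 363, 471 and 237 in PC mice and 2545, 3566 and 447 in PCS mice. Acvr1b (feature 21618), a type I activin receptor, had 148, 214 and 71 in PC mice and 1016, 1830 and 124 in PCS mice. In all 3 genes, as deposited, PCS mice 1 and 2 were above every PC mouse and PCS mouse 3 lay inside the PC range. Over all features, PCS mice 1 and 2 stood above every PC mouse in 24.3% as deposited and 8.33% centred. After centring PCS mouse 3 lay below every PC mouse, at 0.40 for Orc5, -0.18 for U2af2 and -2.03 for Acvr1b. As deposited the differences were 2.13 for Orc5, 2.22 for U2af2 and 2.23 for Acvr1b. The centred differences were 0.63 for Orc5 (SE 1.22), 0.71 for U2af2 (SE 1.23) and 0.72 for Acvr1b (SE 1.35), each with an adjusted p of 1.00 in limma. Without PCS array 3 they were 2.27, 2.33 and 2.57, with unadjusted p of 0.0440, 0.0429 and 0.0343 and adjusted p of 0.940, 0.940 and 0.924 in limma. The set was picked on these same values, so these differences and unadjusted p are no test of it.

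The UFMylation genes went the other way in PCS mice 1 and 2. Ufm1 (feature 10028), a ubiquitin-like modifier linked to proteins at the endoplasmic reticulum and its ribosomes, had intensities of 3628, 3833 and 1374 in PC mice and 1545, 1276 and 38700 in PCS mice. Ufc1 (feature 29307), the enzyme that conjugates it, had 1367, 1737 and 561 in PC mice and 498, 448 and 34726 in PCS mice. For Ufc1, PCS mice 1 and 2 lay below every PC mouse on the deposited scale, and PCS mouse 3 was above every one by a wide margin. The centred differences were -0.84 for Ufm1 (95% interval -3.74 to 2.06) and -0.66 for Ufc1 (95% interval -3.39 to 2.08), and -1.73 and -2.03 without PCS array 3. As deposited the differences were 0.67 and 0.85 with all arrays and -0.93 and -1.22 without PCS array 3, so the sign for both genes rests on that array. Neither passed the test on either scale.

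Tead1 (feature 28796), the DNA-binding partner of the Hippo pathway's YAP, followed a like order. Its intensities were 2207, 2699 and 378 in PC mice and 548, 615 and 20318 in PCS mice. PC mouse 3 was the lowest of the 6 as deposited, and PCS mouse 3 the highest. The centred difference was -0.97 (SE 1.38), and -1.98 without PCS array 3, while the deposited difference was 0.53, and -1.17 without that array. Among second messenger genes, Plcb4 (feature 7153), a phospholipase C that splits membrane phosphoinositides, had intensities of 8527, 14231 and 2181 in PC mice and 4053, 10710 and 39495 in PCS mice. Its groups overlapped on both scales, with a centred difference of -0.60 (95% interval -3.38 to 2.17), or -0.77 without PCS array 3, and a deposited one of 0.90. Prkar1a encodes a subunit that restrains protein kinase A until cyclic AMP binds, and had 1735, 2943 and 1484 against 1946, 1205 and 16595. PCS mouse 3 was the highest and PCS mouse 2 the lowest as deposited. Its centred difference was -0.72 (SE 1.26), or -1.16 without PCS array 3, and its deposited difference 0.79, or -0.36 without it. None of these genes passed the test.

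**Figure D4:**
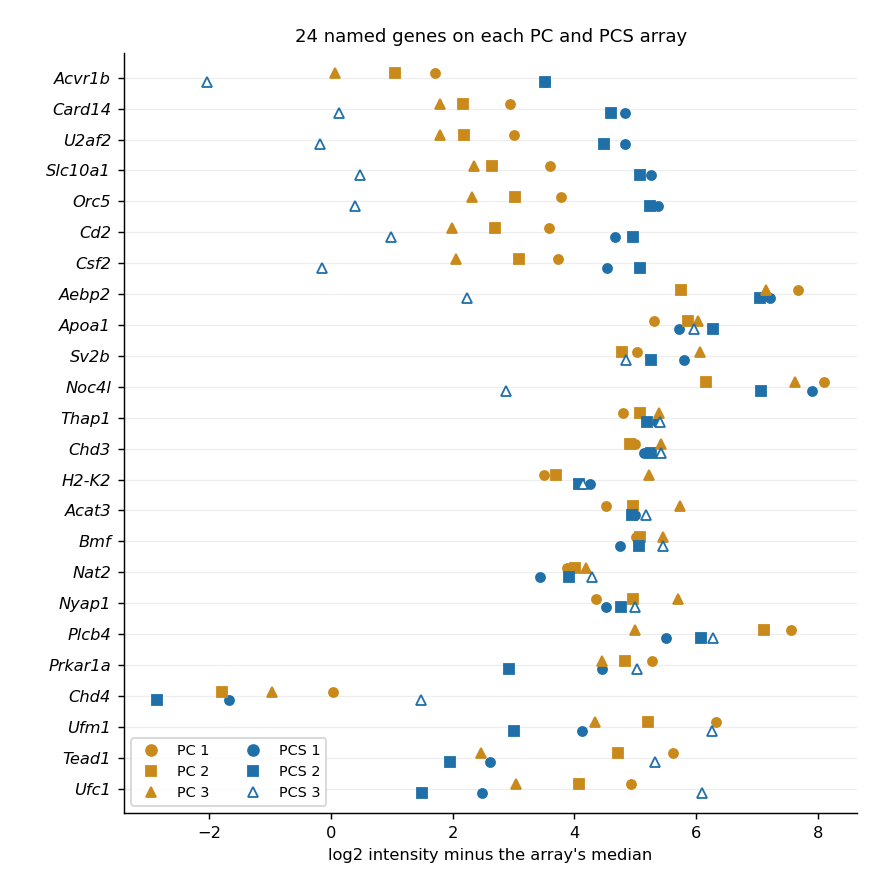
Centred log2 intensity of 24 named genes (rows) on each PC array (orange) and PCS array (blue), where circles, squares and triangles are mice 1, 2 and 3 and the open triangle is PCS mouse 3. PCS mice 1 and 2 lie to the right of all PC mice from Acvr1b to Csf2 and PCS mouse 3 to the left, while for Ufc1, PCS mice 1 and 2 lie to the left and PCS mouse 3 to the right.

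The chromatin genes differed from one another. Chd3 and Chd4 encode alternative helicases of the NuRD remodelling complex. Chd3 (feature 6188) had intensities of 1436, 3101 and 2919 in PC mice and 3146, 6104 and 21687 in PCS mice. Its PCS values were all above its PC values as deposited, the lowest by a small margin, and overlapped after centring, with a difference of 1.67 as deposited and 0.16 centred (SE 0.82), or 0.09 centred without PCS array 3. Chd4 (feature 15041) had 46, 30 and 35 in PC mice and 28, 22 and 1409 in PCS mice. These are dim values, under the array's own median on PC arrays 2 and 3 and on PCS arrays 1 and 2, and PCS mouse 3 stood alone. The centred difference was -0.11 with all arrays and -1.36 without PCS array 3, and the deposited one 1.39 with all arrays and -0.55 without it.

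Aebp2 (feature 10260), a cofactor of Polycomb repressive complex 2, and Noc4l (feature 33200), a nucleolar protein needed to make the small ribosomal subunit, had the lowest centred differences of the named genes. Aebp2 had intensities of 9187, 5534 and 9684 in PC mice and 13178, 20985 and 2378 in PCS mice. Noc4l had 12373, 7338 and 13378 in PC mice and 21286, 21262 and 3726 in PCS mice. As deposited PCS mice 1 and 2 were above every PC mouse for both genes, as in 24.3% of all features. PCS mouse 3, on the brightest array, was below every PC mouse for both. The centred differences were -1.36 for Aebp2 (95% interval -5.19 to 2.47) and -1.35 for Noc4l (95% interval -5.11 to 2.42). Without PCS array 3 they were 0.27 and 0.19, so the centred sign rests on that array for both genes. As deposited they were 0.14 for Aebp2 and 0.16 for Noc4l, of the opposite sign to the centred values.

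Genes of apoptosis, xenobiotic acetylation and neuronal function lay close to the median shift, with centred differences near 0. Thap1, a zinc finger transcription factor, had intensities of 1260, 3470 and 2852 in PC mice and 3654, 5843 and 21443 in PCS mice, and Bmf, a BH3-only activator of apoptosis, had 1457, 3484 and 2970 against 2396, 5299 and 22245. Thap1 did not overlap as deposited and Bmf did, and their centred differences were 0.23 (SE 0.81) and -0.09 (SE 0.71). Nat2, an arylamine N-acetyltransferase, had 662, 1668 and 1241 against 967, 2385 and 9897, with a centred difference of -0.15 (95% interval -1.60 to 1.30). The synaptic vesicle gene Sv2b had 1465, 2836 and 4525 against 4939, 6056 and 14565, and a centred difference of 0.009 (95% interval -0.90 to 0.92), the narrowest of the 24 genes. Nyap1, a neuronal adaptor of phosphoinositide 3-kinase, had 918, 3230 and 3557 against 2044, 4319 and 16237, and a centred difference of -0.25 (SE 0.81). As deposited the differences were 1.73 for Thap1, 1.41 for Bmf, 1.35 for Nat2, 1.51 for Sv2b and 1.25 for Nyap1. For each of these 5 genes PCS mouse 3 was the highest as deposited, and leaving it out moved the centred difference to between -0.37 and 0.23. None of the 5 passed the test, and for all but Sv2b the 95% interval reached past 1 log2 unit in both directions.

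**Figure D5:**
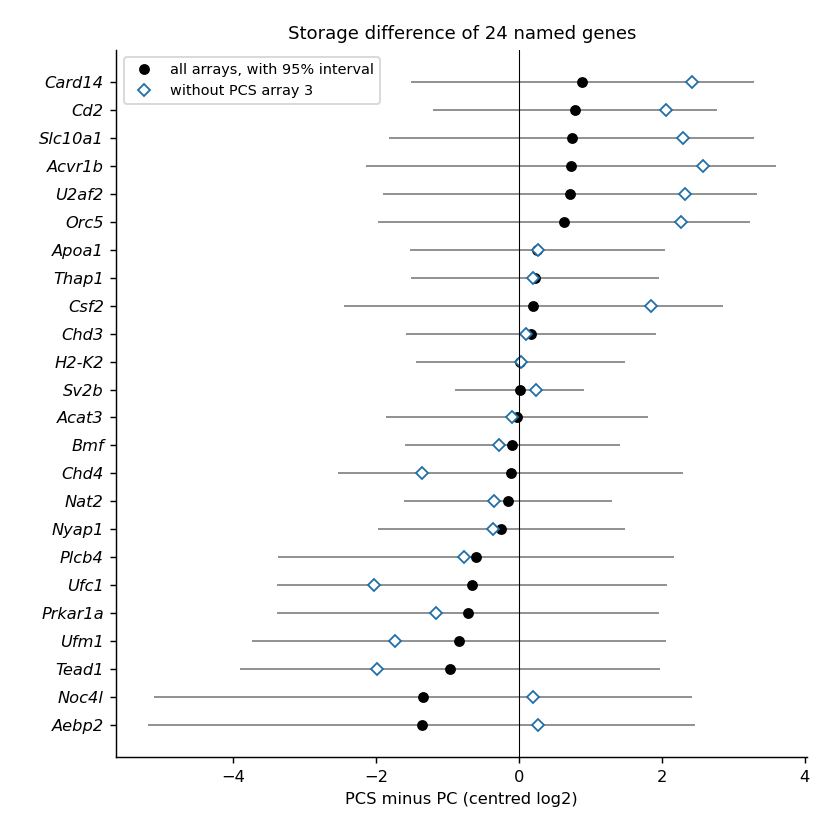
Centred log2 difference, PCS minus PC, of the 24 named genes, ordered by size, with its 95% interval from limma (black point and line) and the difference without PCS array 3 (open diamond). Every interval crosses 0, and for the genes from Card14 to Orc5 the diamonds lie between 2.06 and 2.57, where the black points lie between 0.63 and 0.89.

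The remaining 19 of the 43 measured named genes did not pass either. Over all 43, the centred difference ran from -1.36 to 0.89. The 8 named genes in rows with a blank cell, S100a14, Trbv13-1, Plscr1, Apom, Shank3, Katnal2, Neil3 and Bop1, have no PCS 3 value and were not tested. In those 1893 rows the column medians of several arrays sit elsewhere than in complete rows, at 10.39 against 7.31 (log2) for PCS array 2 and at 7.73 against 5.49 for PC array 1, so which mice those columns hold is uncertain and their values are not used. Among features without a gene name, the 2 with the smallest p toward higher centred values were feature 36504, with intensities of 40, 82 and 39 in PC mice and 303, 404 and 406 in PCS mice, and feature 18761, with 37, 92 and 43 against 187, 589 and 389. For both, all PCS intensities were above all PC intensities as deposited, but on the centred scale PCS mouse 3, at -0.32 and -0.38, lay inside the PC range of -0.80 to -0.17 and of -0.66 to -0.16. The centred differences were 1.36 (SE 0.53) and 1.23 (SE 0.50), with an adjusted p of 1.00 each. The 2 toward lower values, features 1320 and 15703, differed by -1.53 and -1.61 with every PCS mouse below every PC mouse after centring, and were dim, at 26, 23 and 27 against 10, 23 and 67 and at 7, 15 and 13 against 4, 5 and 55.

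The authors' deposited table gives log2 fold changes per mouse against the mean of the water controls, so its PC and PCS values share those controls. For PC mice the authors' deposited table lists 4 genes as higher and 23 as lower, and for PCS mice 22, all higher. Plcb4, Tead1, Noc4l and Aebp2 are in both lists: the authors' deposited table has means of 2.41 in PC and 2.76 in PCS mice for Plcb4, 1.86 and 1.16 for Tead1, 1.46 and 2.25 for Noc4l, and 1.73 and 2.38 for Aebp2. The 17 measured genes of the PC list alone had a median intensity difference, PCS minus PC, of 1.47 as deposited and -0.03 centred (-0.25 without PCS array 3), next to 1.38 and -0.12 over all features. The 16 measured genes of the PCS list alone had 2.04 and 0.53 (2.12 centred without PCS array 3), with PCS array 3 at a median centred difference of -2.45. The authors' deposited table shows no departure of PCS mouse 3 for most of these genes. For each gene that table holds either 3 PCS values other than 0 or none, so a departure in a gene without PCS values cannot be seen there. Acvr1b, with intensities of 1016, 1830 and 124 in PCS mice 1, 2 and 3, is given there as 2.53, 3.38 and 2.68. Card14 is given there as 2.44, 2.62 and 2.45 in PCS mice 1, 2 and 3, and Csf2 as 2.59, 2.78 and 2.84, while Cd2 is lower in mouse 3, at 2.14, 1.91 and 0.96 in the authors' deposited table. The deposited intensities of Csf2, 2062, 5350 and 457, do not have that order.

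The storage difference of conventional flour was set against that of organic flour in the same fit, as PCS minus PC less POS minus PO. Limma called 0 of 5021 features as deposited, with 1 at an unadjusted p under 0.05, and 0 after centring, with 356 at an unadjusted p under 0.05. Array weights, centred, called 927 of the 5021 features and 10 of the 43 named genes, and these shares are close to each other. The 10 named genes were Apoa1, Card14, Cd2, Glcci1, Kcnd1, Lyplal1, Prkar1a, Tead1, Ufc1 and Ufm1. The centred weights were very uneven, from 0.0031 for ADI array 2 to 8.30 for PO array 1. Leaving out PCS array 3 and PO array 2 together, centred, called 1 feature. The named genes with the smallest p after centring were Plcb4 and Tead1. Plcb4 had intensities of 339, 29 and 510 in PO mice and 10549, 5426 and 2100 in POS mice, and a centred storage difference of 3.49 (SE 1.30) in organic flour against -0.60 (SE 1.30) in conventional flour. Every POS mouse was above every PO mouse, where PC and PCS mice overlapped. The difference between the storage effects was -4.10 (SE 1.84, adjusted p = 0.654). Tead1 had a centred storage difference of 3.35 in organic flour and -0.97 in conventional flour, and these differed by -4.32 (SE 1.95, adjusted p = 0.654). Without PCS array 3 the centred values were -4.26 for Plcb4 (adjusted p = 0.408) and -5.33 for Tead1 (adjusted p = 0.324), and without PO array 2 limma called 0 features on either scale, with 172 as deposited and 476 centred at an unadjusted p under 0.05. PO array 2 is dim, with a median intensity of 5 and 84.2% of its values under 16, and its part in these values was not tested.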

How the data were processed

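Scans were read with Agilent Feature Extraction, per the submitters' processing notes, and its version, signal column and background step are not stated there. The intensity values as deposited are linear and differ in brightness from array to array, so they carry no visible scaling. The authors' deposited table of log2 fold changes against the control mean was used for gene names and for values quoted as the authors'. The files name no genome build, so positions are left out. Of 6914 rows, 5021 have a value on all 18 arrays, and 43 of the 51 named genes lie in them.

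Values were set to at least 1, log2 transformed and used as deposited and with each array centred on its median over complete rows. A model of the 6 group means was fitted to the 18 arrays with limma 3.58.1 under R 4.3.3 (eBayes, no trend), and p-values were adjusted by Benjamini-Hochberg over all 5021 features at a threshold of 0.05. Intervals are 95% intervals of that fit. Array medians were compared by an exact permutation test. Labels number the individuals, so each array is a separate mouse. Limma p-values rest on the spread between mice within groups, pooled over all 18 arrays, PO array 2 included. The labels state no pairing of mice by replicate number, and the main fit used none. Python 3.11.15, numpy 2.4.6, pandas 2.3.3 and scipy 1.17.1 were used.

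The genes given in full are members of 12 lists by function and the 6 highest and 6 lowest named genes by centred difference; other genes are named where a count calls for them, after their values were seen. The members and lists were chosen with earlier results of these data known, and the rule of a 1 log2 margin was chosen after seeing the data. Alternatives were the floor, a filter on dim features, the centring, quantile normalization, an intensity trend, array weights, a replicate block, the arrays in the fit and leaving out each array. Without scanner flags, whether a feature stood above background is unknown.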

Additional observations from a re-analysis of the deposited data

Results flagged for a closer look

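Among the 24 genes given in full, 2 had every PCS mouse below the PC mean and every POS mouse above the PO mean after centring. Only those genes were searched for this pattern. Its share among all features was not counted, so the count alone does not set these 2 genes apart. For Plcb4 the storage difference was -0.60 in conventional and 3.49 in organic flour, and these differed by -4.10 (limma, unadjusted p = 0.0416, adjusted p = 0.654). For Nyap1 it was -0.25 and 0.60, differing by -0.85 (limma, adjusted p = 0.824). Neither difference passed the test. PO array 2, with intensities of 29 for Plcb4 and 18 for Nyap1 and a median of 5, and POS mouse 3, sampled on day 27, are among these arrays. Centred levels of Nyap1 were 5.74, 1.85 and 6.16 in PO mice and 4.77, 5.65 and 5.12 in POS mice. Every POS mouse lay below PO mice 1 and 3, so the sign of the organic difference of Nyap1 rests on PO array 2. PCS mouse 3 lay only 0.009 below the PC mean for Nyap1. Apart from that sign, the part of PO array 2 and POS mouse 3 was not tested.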

How the results depend on the processing

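The count of features past the threshold stayed at 0 on both scales with a floor of 16, only features with a mean log2 of at least 6, an intensity trend, quantile normalization, and when any single PC or PCS array was left out. It also stayed at 0 with a replicate block, in the storage comparison and in the difference between the storage effects. In the storage comparison the block left 33 and 24 features at an unadjusted p under 0.05 in limma, as deposited and centred. Deviations from the group mean correlated across features at 0.253, 0.079 and 0.091 for same-numbered PC and PCS arrays. For differently numbered arrays the correlations ran from -0.226 to 0.094. These values cannot settle whether the numbers pair mice, and the block is given only here. A fit of the PC and PCS arrays alone called 1 feature as deposited and 0 centred; a fit on all rows with 6 PC and PCS values uses the same 5021 rows. Leaving out PCS array 3 and PO array 2 together called 0 as deposited and 2 centred, both lower in PCS. Array weights called 4051 as deposited, 3975 of them higher, and 9 centred. The deposited weights ran from under 0.001 (PO array 1) to 4974 (ADI array 2). They were 0.82, 837 and 0.43 for PCS arrays 1, 2 and 3, so the deposited count rests almost wholly on 1 PCS mouse. For the difference between the storage effects, the settings of scaling, floor, filter, trend, weights and that double omission were added after seeing the data and called 0 as deposited; centred, array weights called 927 (319 higher, 608 lower, with weights from 0.0031 for ADI array 2 to 8.30 for PO array 1), leaving out PCS array 3 and PO array 2 together called 1, and the others 0. The cause of these moves was not tested.

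Signs of single genes were less stable. With array weights Chd4, Prkar1a, Tead1, Ufc1 and Ufm1 turned to -0.70, -0.48, -0.11, -0.76 and -0.54 as deposited, and Acat3 to 0.0033 centred. Acat3 turned to 0.0026 with 75th percentile centring and to 0.080 with quantile normalization, and Bmf to 0.064 with the latter. With 1 array left out, centred differences changed sign within -0.31 to 0.30 for Acat3, -0.20 to 2.57 for Acvr1b, -2.22 to 0.27 for Aebp2, -0.28 to 0.075 for Bmf, -1.36 to 0.81 for Chd4, -0.76 to 1.85 for Csf2, -0.30 to 0.56 for H2-K2, -0.35 to 0.068 for Nat2, -2.32 to 0.19 for Noc4l, -0.58 to 0.10 for Nyap1, -0.22 to 2.27 for Orc5, -0.092 to 2.30 for Slc10a1, -0.24 to 0.39 for Sv2b, -0.18 to 2.33 for U2af2 and -2.03 to 0.28 for Ufc1. Deposited differences did so within -0.50 to 1.07 for Aebp2, -0.55 to 2.45 for Chd4, -0.26 to 1.00 for Noc4l, -0.36 to 1.53 for Prkar1a, -1.17 to 1.43 for Tead1, -1.22 to 1.92 for Ufc1 and -0.93 to 1.53 for Ufm1. Features with no overlap and every PCS array higher, as deposited, numbered 999 to 3567 with 1 array left out (3567 without PCS array 1, 2435 without PC array 2), and centred 108 to 418; with every PCS array lower, centred, they numbered 178 to 890, against 94 with all arrays. The number of arrays, 3 a group, limits every value.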
